A study of Homo sapiens with 21 samples.

Results

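The genes described here carry symbols of mitochondrial ribosomal proteins and were taken as all protein-coding genes whose symbol starts with MRPL or MRPS followed by a number. The annotation held 78 such genes, 49 named MRPL and 29 named MRPS, and 76 of them were among the 20970 genes measured in at least 1 of 4 tables of RNA-seq values. Of these 76 members, 50 were counted with the large subunit and 26 with the small subunit. MRPS18A and MRPS30 were counted with the large subunit, where their proteins sit in spite of their symbols. MRPS36 was counted with the small subunit by its symbol, although its product is now known as a part of another complex, named further on. MRPL45 and MRPS21 were not analysed here, since their identifiers did not match a row of the tables.

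The tables come from a study of METTL4, a methyltransferase that the study examined for DNA adenine methylation in hypoxic tumor cells. FADU is a head and neck (pharynx) cancer cell line, and BFTC909 is an upper tract urothelial cancer cell line. In each line, 2 libraries were made from cells with a control siRNA (Scr-si) in normoxia (18% O2), 2 from Scr-si cells in hypoxia (1% O2 for 18 h), and 2 from cells with a METTL4 siRNA (METTL4-si, spelled METL4-si in the labels) in hypoxia. FADU cells in normoxia that carried a control vector, a METTL4 expression vector or a vector for the lncRNA RP11-390F4.3 gave 2 libraries each. FADU cells in hypoxia gave 1 library of unedited CRISPR control cells and 1 library of either of 2 METTL4 mutant clones, each grown from a single cell after prime editing of the catalytic DPPW motif. Nothing in the labels says that the 2 libraries of a group came from separate cultures, so p-values measure only the spread between these samples, which may be technical.

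Mitochondria translate a small set of messages of their own genome, all of them for subunits of the respiratory chain and of ATP synthase. The ribosome that does so combines RNA made in the organelle with proteins that are encoded in the nucleus, translated in the cytosol and imported. The small subunit binds the message and reads codons, and the large subunit forms the peptide bond and holds the exit tunnel. Many of these proteins have a bacterial counterpart, whereas others occur only in mitochondria.

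The knockdown and overexpression libraries held about 19039000 to 25411000 reads on genes and the CRISPR libraries 17782000 to 20064000. METTL4 itself had values of 26.6 and 25.3 in FADU hypoxia and of 24.2 and 27.1 after METTL4-si. Those libraries overlapped, with a log2 fold change of -0.02 (SE 0.0881, limma adjusted p = 0.9), so METTL4-si below means the libraries with that label. In BFTC909 the values were 19 and 15.6 against 14.4 and 12.2, a log2 fold change of -0.36 (limma, adjusted p = 0.0717). With the expression vector METTL4 went from 35.4 and 32.7 to 158 and 139. CA9, a carbonic anhydrase used as a hypoxia marker, rose under hypoxia with Scr-si from 2.44 to 34.4 in FADU and from 0.766 to 55.1 in BFTC909. In the METTL4-si libraries, also labelled as hypoxia, it was at 1.87 and 2.22 in FADU, below the normoxia values of 2.33 and 2.55. In BFTC909 METTL4-si it was at 5.53 and 5.84. The mutant clones were at 10.4 and 15.2, against 29.8 in the CRISPR control. CA9 thus differed between METTL4-si and Scr-si in hypoxia, and the reason was not tested. All 7 squamous epithelium markers were at 1 or more in every FADU library. In BFTC909, only 2 of 9 urothelium markers had a row, with summed values of 11.2 to 29 outside METTL4-si replicate 2, while the fibroblast list, with 5 of 6 genes in the table and COL1A2 in the lead, summed to 1020 to 4652. Markers of breast luminal epithelium, a tissue that neither line comes from, had a row for 6 of 8 genes in FADU. They summed to 117 in FADU normoxia replicate 1 and 555 in FADU METTL4-si replicate 1. The other 4 FADU knockdown libraries were at 16.2 to 25. In BFTC909 only 2 of these 8 genes had a row. One of them, MLPH, was expressed in every library, at 118 to 148 outside METTL4-si replicate 2. In METTL4-si replicate 2 this sum was 306, with MLPH at 185, against 120 to 158 in the other 5 libraries. The urothelium sum in that library was 148, with GATA3 at 128. Of the overexpression libraries, RP11-390F4.3 replicate 2 had a breast luminal sum of 54.3 over 4 of 8 genes, against 14.7 to 20.3 in the other 5. Some counts, medians and named members that rest on these 4 libraries are also given without the libraries concerned. Sums, shares, ratios and the other members are given with all libraries. The part of the other transcripts in the results was not tested.

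In FADU normoxia the members covered a wide range of levels per kilobase of annotated exon. All annotated exons of a gene were joined, from 582 bases for MRPL41 to 19524 for MRPS27, so the order also depends on annotated length. MRPS27, with values of 129 and 137, was at 6.81 per kilobase. The highest were MRPL51, a mitochondria-specific protein, at 66.7 ± 5.08 (SD, n = 2), and MRPL3, which reaches toward the peptidyl transferase center, at 65.8 ± 2.61. MRPS34, a mitochondria-specific protein of the small subunit, followed at 59.8 ± 4.38. These 3 did not differ beyond their spread. At the low end stood MRPL38 at 1.21 ± 0.00734, MRPS24 at 0.469 ± 0.0577 and MRPL30 at 0.105 ± 0.0245 per kilobase, and the gaps among these 3 exceeded their spread. Each of these 3 shares its locus and strand with another annotated coding gene. Reads on both genes cannot be assigned to 1 of them, so these low values are uncertain as levels of the genes. MRPL30 was in no other table and was too low to be tested, so 75 members were tested in each comparison. The median level per kilobase was 12.7 for the large subunit and 10.1 for the small subunit in FADU normoxia, and 13 and 10.1 in BFTC909 normoxia. In BFTC909 the highest was MRPS10, a small subunit protein with a bacterial counterpart, at 128 ± 1.89 per kilobase, followed by MRPL15 at 63 ± 0.191 and MRPL18 at 57 ± 0.0928. These 3 were apart by more than their spread.

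Summed over members, the value (TMM-normalized CPM, that is reads scaled to the size of each library) was lower in hypoxia than in normoxia in both lines. In FADU the sum was 3188 and 3271 in normoxia, 2670 and 2639 in hypoxia, and 2288 and 2193 with METTL4-si. In BFTC909 it was 3331 and 3317, then 2262 and 2321, then 2131 and 2104. Within each line the 3 groups did not overlap and each step was downward. As a share of the signal on all genes, the members took 0.309 and 0.313%, then 0.264 and 0.259%, then 0.24 and 0.233% in FADU, and 0.33 and 0.328%, then 0.221 and 0.226%, then 0.22 and 0.219% in BFTC909. The overexpression libraries summed to 2964 and 2988 with the control vector, 3522 and 3488 with METTL4, and 3166 and 3095 with RP11-390F4.3. As a share of the signal on all genes, METTL4 at 0.35% in both libraries was above the control at 0.305 and 0.307%, whereas RP11-390F4.3 at 0.309 and 0.301% overlapped it. With 2 libraries against 2, a two-sided exact permutation test cannot give a p below 0.333, so these sums are a description. In bulk RNA, a smaller share of cells that make a transcript and less of it per cell cannot be told apart.

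**Figure D1:**
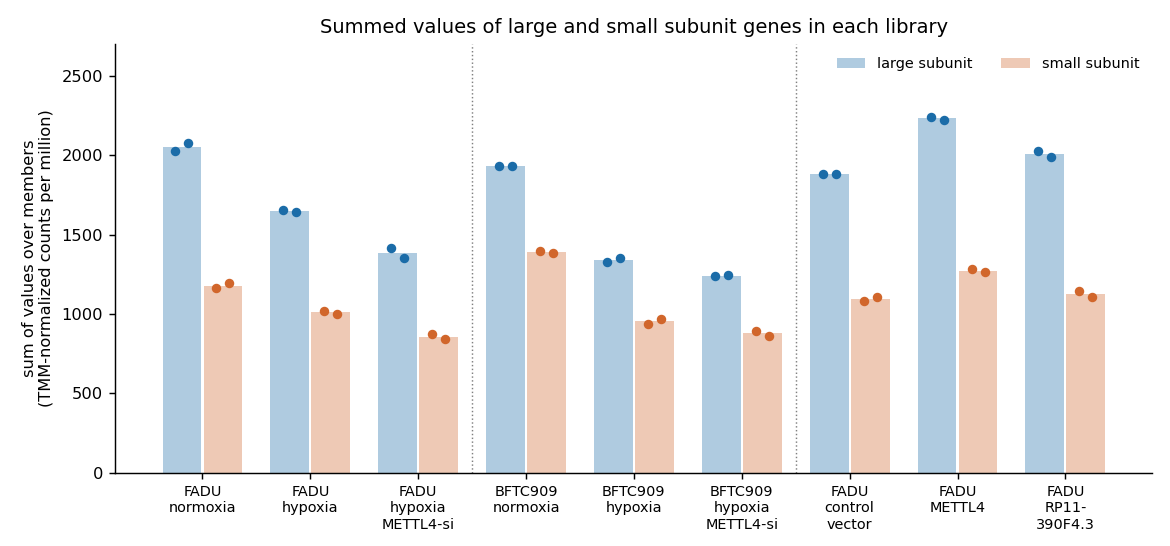
Sum of the TMM-normalized values (CPM) of large subunit (blue) and small subunit (orange) members, with 1 point per library and a bar at the mean of 2 libraries. Dotted lines separate the 3 tables, which were normalized separately, and the large subunit points in FADU fall from 2026 and 2077 in normoxia to 1653 and 1639 in hypoxia.

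The subunits were also compared with each other. The large to small ratio of these sums was 1.74 in both FADU normoxia libraries, 1.63 and 1.64 in FADU hypoxia, and 1.62 and 1.61 with METTL4-si. The ratio was lower in every FADU hypoxia library, but much of the gap lay with MRPS6, whose value is given further on. Without MRPS6 the ratio was 1.83 in both normoxia libraries, 1.78 and 1.8 in hypoxia, and 1.7 and 1.72 with METTL4-si. In BFTC909 the ratio lay between 1.38 and 1.44 in all 6 libraries, and its 3 groups overlapped. It was 1.75 and 1.71 with the control vector, 1.75 and 1.76 with METTL4 and 1.78 and 1.8 with RP11-390F4.3. The medians give every member the same weight. Under hypoxia the median log2 fold change in FADU was -0.30 for the large and -0.29 for the small subunit, and in BFTC909 -0.49 and -0.57. With METTL4-si the medians were -0.19 and -0.11 in FADU and -0.09 and -0.11 in BFTC909. They were 0.22 and 0.18 with METTL4 overexpression, and 0.07 and -0.02 with RP11-390F4.3. The FADU difference of -0.08 between subunits was -0.01 without METTL4-si replicate 1 and 0.03 without METTL4-si replicate 2, so it rests on single libraries. The BFTC909 hypoxia difference of 0.08 was 0.03 when MRPS18A and MRPS30 were counted by symbol.

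**Figure D2:**
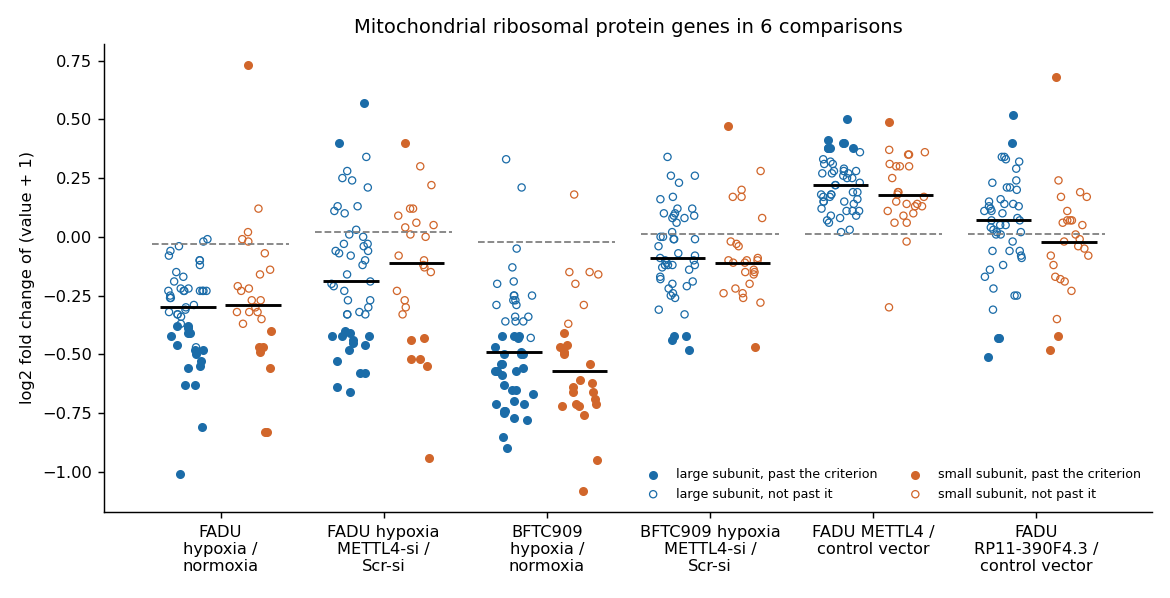
Log2 fold change of (value + 1) for each of 75 members (49 large subunit in blue, 26 small subunit in orange) in 6 comparisons, with filled points for members past 1.3-fold at an unadjusted p under 0.05. Black bars mark the median of each subunit and dashed lines the median of all tested genes, and in BFTC909 hypoxia the subunit medians of -0.49 and -0.57 lie furthest from that line.

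Hypoxia was compared with normoxia to ask how low oxygen changes these genes. The study's criterion was used to call a change, namely a shift of at least 1.3-fold and a limma p, before adjustment, under 0.05. Counts by adjusted p (Benjamini-Hochberg over all tested genes) stand beside it. In FADU, 24 members fell and 1 rose, and 50 did not pass. Over all 16324 tested genes 12.5% fell and 12.4% rose, against 32% and 1.33% of members. At an adjusted p under 0.05 with any fold, 24 members fell, against 12.7% of all tested genes. Both hypoxia libraries were below both normoxia libraries for 65 of 75 tested members, against 39.5% of all tested genes. The median log2 fold change of members was -0.30, and that of all genes was -0.03. With a pseudocount of 5 in place of 1, 15 members fell.

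The largest decrease in FADU was that of MRPL12, the stalk protein that recruits translation factors to the large subunit (chromosome 17, 79670397 to 79674547, plus strand, in hg19). Its values were 15.2 and 14.0 in normoxia and 6.47 and 7.02 in hypoxia, a log2 fold change of -1.01 (SE 0.127, limma adjusted p = 0.00317). Both hypoxia libraries stood far below both normoxia libraries. With METTL4-si in hypoxia MRPL12 was at 7.42 and 6.14. In the control vector libraries, which are FADU in normoxia but were normalized separately, it was at 8.2 and 7.86. MRPS12, a protein of the decoding center (chromosome 19, 39421584 to 39423808), went from 25.3 and 25.9 to 14.3 and 13.5. MRPS34 (chromosome 16, 1821891 to 1823151) went from 68.7 and 62.0 to 36 and 36.8, and both of these genes had a log2 fold change of -0.83 (limma adjusted p = 0.0182 and 0.0109). MRPL4, which lines part of the exit tunnel, went from 43.2 and 36.3 to 21.9 and 22.4, a log2 fold change of -0.81 (limma adjusted p = 0.00739). MRPL12 shares its locus and strand with another annotated coding gene, and reads on both cannot be assigned to 1 of them.

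MRPS6 was the single member that rose in FADU hypoxia. It encodes a small subunit protein with a bacterial counterpart and lies on chromosome 21 (35445524 to 35515334, plus strand, hg19). Its values were 51.6 and 56.7 in normoxia and 89.1 and 92.2 in hypoxia, a log2 fold change of 0.73 (SE 0.0935, limma adjusted p = 0.00325). In BFTC909 the values were 26.5 and 26.1 in normoxia and 23.0 and 24.3 in hypoxia, a log2 fold change of -0.15 that did not pass. The coding gene SLC5A3, a myo-inositol transporter that cells use against osmotic stress, overlaps MRPS6 on the same strand. Its identifier did not match a row of values in any library, so SLC5A3 was not analysed here. How reads in the overlap were counted is not given in the sources used here.

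In BFTC909 hypoxia, 49 of 75 members fell and none rose, and 26 did not pass. Of all 14869 tested genes 19.2% fell and 19.5% rose, against 65.3% and 0% of members. At an adjusted p under 0.05 with any fold 62 members fell, against 24.5% of tested genes. edgeR on whole reads called 51 members down and 0 up, and no member rose at an adjusted p under 0.05. Both hypoxia libraries were below both normoxia libraries for 71 members, against 43.2% of tested genes. The 3 members with both hypoxia libraries above were MRPL38, MRPL46 and MRPS14, at log2 fold changes of 0.33, 0.21 and 0.18, none of which passed. The members had a median log2 fold change of -0.50, against -0.02 for all genes. Fibroblast markers moved the other way in the same libraries, with sums of 1020 and 1114 in normoxia and 4447 and 4652 in hypoxia, and their part in the result was not tested.

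MRPS2, a small subunit protein with a bacterial counterpart (chromosome 9, 138391830 to 138396519), fell most in BFTC909, from 47.9 and 43.6 to 19.9 and 22.5. The log2 fold change was -1.08 (SE 0.16, limma adjusted p = 0.00163). MRPS12 went from 27.5 and 25.1 to 12.3 and 13.9, and MRPL12 from 6.18 and 6.04 to 2.55 and 3.06, so both were lower in all hypoxia libraries of both lines. Their log2 fold changes were -0.95 and -0.90 (limma adjusted p = 0.00253 and 0.00259). MRPL58, a peptidyl-tRNA hydrolase built into the large subunit that frees stalled chains, had values of 19.1 and 19.1 in normoxia and of 10.5 and 9.84 in hypoxia. MRPL18, a protein of the central protuberance, went from 78.5 and 78.3 to 46.7 and 43.5, a log2 fold change of -0.78 (limma adjusted p = 0.000257). In FADU, MRPL18 was at 48.9 and 52.0 in normoxia and at 50.5 and 50 in hypoxia, where the groups overlapped.

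**Figure D3:**
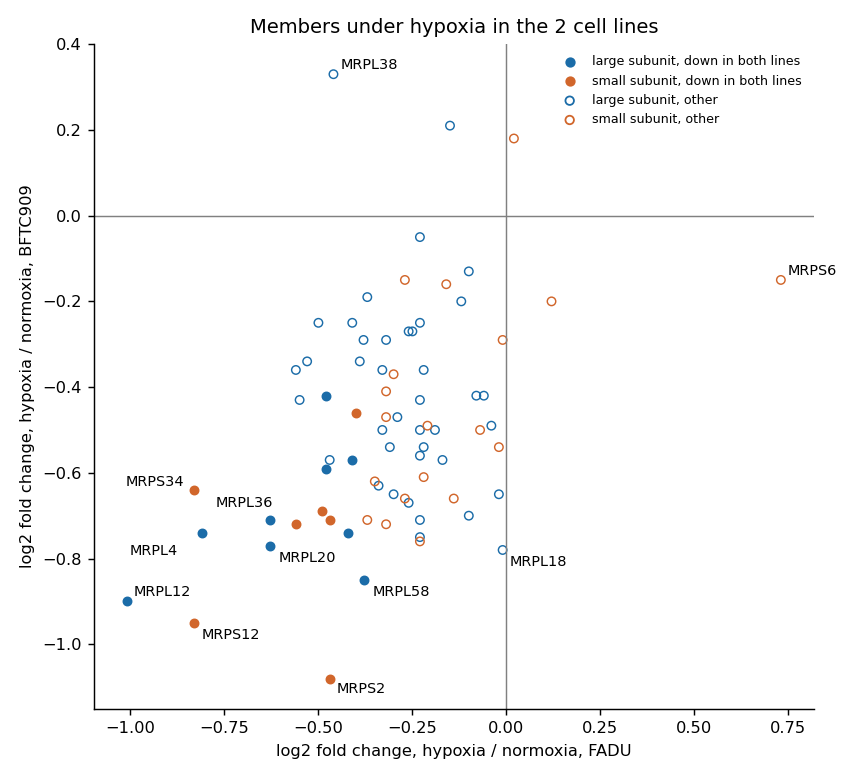
Log2 fold change of (value + 1) under hypoxia in FADU (x axis) and BFTC909 (y axis) for 75 members, blue for the large and orange for the small subunit, filled where a member fell in both lines. The 16 filled points lie at the lower left, MRPS6 alone lies far to the right at 0.73 on the x axis, and MRPL38 lies above 0 on the y axis at 0.33.

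The lines share no library, so their calls could be set side by side. Of the 24 members that fell in FADU and the 49 that fell in BFTC909, 16 fell in both, which is 66.7% of the first list and 32.7% of the second. The first share is close to the 65.3% of all members that fell in BFTC909, and the second to the 32% that fell in FADU. Over all tested genes, 33% of those that fell in FADU also fell in BFTC909, and 23.5% of those that fell in BFTC909 also fell in FADU. The 9 of the large subunit were MRPL3, MRPL4, MRPL12, MRPL20, MRPL28, MRPL32, MRPL34, MRPL36 and MRPL58. The 7 of the small subunit were MRPS2, MRPS12, MRPS15, MRPS17, MRPS23, MRPS26 and MRPS34. MRPL20, an RNA-binding protein with a bacterial counterpart, was far higher in BFTC909. Its values were 147 and 145 in normoxia and 84.4 and 85.9 in hypoxia there, against 35.3 and 32.5 and then 20.8 and 22.3 in FADU. The relative decrease was 41.8% in BFTC909 and 36.5% in FADU. Without FADU normoxia replicate 1, which held the breast markers, 20 members fell in FADU. The log2 fold changes of MRPS2, MRPL34 and MRPL58 were then -0.34, -0.37 and -0.28, short of 1.3-fold, and MRPS23 and MRPS26 at -0.48 and -0.42 no longer passed on p. When METTL4-si replicate 1 was left out as well, 26 members fell, and MRPS2, MRPL34 and MRPL58 were still short. Without FADU hypoxia replicate 1, 17 members fell, and MRPL34, MRPL58, MRPS15, MRPS23 and MRPS26 were among those that did not pass. By adjusted p, MRPS23, MRPL34 and MRPL58 did not pass in FADU (limma adjusted p = 0.0862, 0.126 and 0.0853). The spread behind these p-values also takes in the METTL4-si libraries, where MRPS23 was at 33.7 and 22.2. In the groups compared, MRPS23 was at 38.3 and 37.6 in normoxia and at 27.2 and 26.2 in hypoxia.

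The stretches just before the start sites of 8 members are shown. MRPL12, MRPS12 and MRPS2 are there as members with some of the largest decreases under hypoxia, MRPL20, MRPL3, MRPL36 and MRPS34 as members that fell in both lines and hold letters of a motif, and MRPS6 as the member that rose in FADU. They are the 150 bases before each RefSeq start in GRCh38.p14, read 5′ to 3′ on the strand of the gene. MRPL12 is at chr17:81703217-81703366, MRPS12 at chr19:38930794-38930943, MRPS2 at chr9:135500532-135500681 and MRPS6 at chr21:34073428-34073577, all on the plus strand. MRPL20 is at chr1:1407294-1407443, MRPL3 at chr3:131502972-131503121, MRPL36 at chr5:1799838-1799987 and MRPS34 at chr16:1773135-1773284, all on the minus strand. Capitals mark letters of 4 motifs on either strand, namely CCGGAAGT of ETS family factors such as GABPA, GATGGCGG of YY1, GCGCNTGCG of NRF1 and the E-box CACGTG of MYC and MAX.
MRPL12: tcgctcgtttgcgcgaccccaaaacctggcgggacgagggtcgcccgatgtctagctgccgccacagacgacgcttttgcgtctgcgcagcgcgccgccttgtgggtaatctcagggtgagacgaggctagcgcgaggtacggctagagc
MRPS12: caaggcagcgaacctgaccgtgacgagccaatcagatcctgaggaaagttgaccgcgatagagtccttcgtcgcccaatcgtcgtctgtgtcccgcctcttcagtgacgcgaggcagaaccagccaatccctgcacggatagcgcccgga
MRPS2: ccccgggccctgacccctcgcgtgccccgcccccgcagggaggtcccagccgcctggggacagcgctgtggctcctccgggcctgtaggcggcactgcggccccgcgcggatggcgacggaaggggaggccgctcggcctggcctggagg
MRPL20: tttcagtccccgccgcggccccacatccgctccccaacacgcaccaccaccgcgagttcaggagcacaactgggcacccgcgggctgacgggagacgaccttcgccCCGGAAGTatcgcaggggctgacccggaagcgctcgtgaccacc
MRPL3: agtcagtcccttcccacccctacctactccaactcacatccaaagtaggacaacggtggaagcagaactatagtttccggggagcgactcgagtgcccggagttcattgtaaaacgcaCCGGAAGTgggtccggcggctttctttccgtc
MRPL36: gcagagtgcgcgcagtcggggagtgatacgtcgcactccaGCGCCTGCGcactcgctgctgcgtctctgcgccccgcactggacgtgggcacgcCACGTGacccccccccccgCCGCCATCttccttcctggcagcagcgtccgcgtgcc
MRPS34: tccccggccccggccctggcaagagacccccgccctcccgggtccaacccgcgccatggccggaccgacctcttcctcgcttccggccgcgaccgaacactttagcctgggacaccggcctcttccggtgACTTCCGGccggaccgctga
MRPS6: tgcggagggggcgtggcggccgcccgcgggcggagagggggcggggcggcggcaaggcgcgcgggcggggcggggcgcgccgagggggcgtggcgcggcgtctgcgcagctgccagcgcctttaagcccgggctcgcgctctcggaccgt

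The stretch of MRPL36 held 3 of the motifs, and those of MRPL20, MRPL3 and MRPS34 held the ETS letters at 44, 32 and 20 bases before the start. No letters of the 4 motifs are in the stretches of MRPL12, MRPS12, MRPS2 and MRPS6. In the RefSeq windows of 300 bases (250 before to 50 after the start), for which 67 of 76 members had an entry, the YY1 letters were in 13 members (19.4%) against 2.44% of 27305 promoters. In 10 of these 13 the match lay after the start. The ETS letters were in 11 members (16.4%) against 4.44%, the NRF1 letters in 10 (14.9%) against 8.05%, and the E-box in 5 (7.46%) against 7.43%. ACGTG, the core of the hypoxia response element, which lies inside the E-box letters, was in 17 members (25.4%) against 21.6%, and the TATA letters TATAAA in 2 (2.99%) against 12%. Of the 11 members with the ETS letters, 6 fell in FADU hypoxia and 5 in BFTC909 hypoxia, against 16 and 37 of the 55 tested members whose window lacks them. Of the 13 with the YY1 letters, 3 fell in FADU and 9 in BFTC909, against 19 and 33 of 53. Of the 16 members that fell in both lines, 5 had any of the 4 motifs in the window and 11 had none, against 31 and 36 of all 67 members with an entry. These matches are a description of letters and not of binding.

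The METTL4-si libraries were compared with the Scr-si libraries in hypoxia, which also serve as the hypoxia side of the comparison above, so the values of both comparisons are given side by side without a test of their relation. In FADU, 20 members fell and 3 rose, and 52 did not pass. Over all 16324 tested genes 16.8% fell and 15.2% rose, against 26.7% and 4% of members. At an adjusted p under 0.05 with any fold, 24 members fell, against 19.5% of tested genes. Both METTL4-si libraries were below both Scr-si libraries for 42 members, against 34.4% of tested genes. The median log2 fold change was -0.13, against 0.02 for all genes. Without normoxia replicate 1 and METTL4-si replicate 1, which held the breast markers, 24 members fell, 3 rose and the median was -0.21. Without METTL4-si replicate 2, 7 rose.

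MRPS6 fell most, from 89.1 and 92.2 to 43.3 and 50.4, a log2 fold change of -0.94 (SE 0.0935, limma adjusted p = 0.00088) that was -0.83 without the libraries with breast markers. These 2 values lie below the normoxia values of 51.6 and 56.7. MRPL18 went from 50.5 and 50 to 30.5 and 32.3, a log2 fold change of -0.66 (limma adjusted p = 0.00126). MRPL13, a large subunit protein with a bacterial counterpart, went from 67.6 and 72.0 to 42.6 and 46.2. Like MRPL18 it had not passed under hypoxia, where its groups overlapped. MRPL15 went from 43.7 and 44.4 to 28.0 and 30.2, and MRPL11, at the base of the stalk, from 74.1 and 74.6 to 50.7 and 48.1. The last 2 had a log2 fold change of -0.58 (limma adjusted p = 0.0033 and 0.00153), and in all of these genes the groups did not overlap.

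The 3 members that rose with METTL4-si in FADU had lower values in hypoxia than in normoxia. MRPL38, a protein of the central protuberance with low values here, was at 4.03 and 4.07 in normoxia, 2.88 and 2.46 in hypoxia and 4.55 and 4.36 with METTL4-si. Its log2 fold change was -0.46 under hypoxia and 0.57 with METTL4-si (limma adjusted p = 0.0412 and 0.0148). MRPL32, a large subunit protein that is cut by a mitochondrial protease before assembly, was at 38.1 and 37.8, then 28.5 and 28.0, then 35.2 and 40.0. MRPS18C was at 21.1 and 21.5, then 15.7 and 16.9, then 22.5 and 21.0, and its log2 fold change of 0.40 with METTL4-si was 0.35, short of 1.3-fold, without the libraries with breast markers. MRPL32 had a log2 fold change of 0.40 as well (limma adjusted p = 0.0132), which was 0.31, short of 1.3-fold, without METTL4-si replicate 2.

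In BFTC909 with METTL4-si, 5 members fell and 1 rose, and 69 did not pass. These shares, 6.67% and 1.33%, were below the 12.9% of all tested genes that fell and the 15.7% that rose. At an adjusted p under 0.05 with any fold 12 members fell, against 16.6% of tested genes. Both METTL4-si libraries were lower for 31 of 75 members (41.3%), against 32% of tested genes. The members had a median log2 fold change of -0.10, against 0.01 for all genes. That median was -0.20 with libraries centred on their median. With libraries centred on their median, 8 members fell and none rose. The number that rose was 0 without hypoxia replicate 1 and 5 without METTL4-si replicate 1. MRPL54, a mitochondria-specific large subunit protein, went from 9.35 and 9.03 to 5.96 and 6.65, a log2 fold change of -0.48 (SE 0.114, limma adjusted p = 0.0168). MRPL51 went from 54.5 and 56.1 to 42.3 and 40.0, a log2 fold change of -0.42 (limma adjusted p = 0.00533). MRPL48 had the same log2 fold change, with values of 19 and 20.1 against 14.6 and 14.1 (limma adjusted p = 0.00983). All 3 held without METTL4-si replicate 2, at -0.55, -0.38 and -0.40.

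MRPS33, a mitochondria-specific small subunit protein, went from 40.6 and 42.2 to 32.4 and 27.0 in BFTC909, and MRPL15 from 66.3 and 69.2 to 55.1 and 44.9. Their log2 fold changes of -0.47 and -0.44 (limma adjusted p = 0.00949 and 0.0138) were -0.35 and -0.29, short of 1.3-fold, without METTL4-si replicate 2. MRPS26, a mitochondria-specific small subunit protein, had values of 8.29 and 10.6 in Scr-si and of 11.6 and 15.5 in METTL4-si. It passed the study's criterion at a log2 fold change of 0.47, but not by adjusted p (limma adjusted p = 0.0618), and was at 0.28 without replicate 2. MRPL15, MRPL51, MRPL54 and MRPS33 fell with METTL4-si in both lines, which is 20% of the 20 in FADU and 80% of the 5 in BFTC909. Over all tested genes these shares were 24.2% and 34.4%. In FADU, MRPL51 was at -0.37 and MRPL54 at -0.18, both short of 1.3-fold, without METTL4-si replicate 2. MRPL54 in FADU had values of 7.68 and 6.66 against 6.18 and 4.27, a log2 fold change of -0.41 that did not pass by adjusted p (limma adjusted p = 0.109).

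METTL4 overexpression in normoxia was compared with the control vector. In these libraries 9 members rose, none fell and 66 did not pass. Over all 15644 tested genes 8.3% rose and 11.1% fell, against 12% and 0% of members. The changes were small and spread widely over the members, and with a pseudocount of 5 only 2 passed. At an adjusted p under 0.05 with any fold, 39 members rose and none fell, against 20.9% of tested genes that rose (limma, and edgeR on whole reads with the study's criterion called 10 up and 0 down). Both METTL4 libraries were above both control libraries for 62 members, against 36.1% of tested genes. The median log2 fold change was 0.19, against 0.01 for all genes. MRPS24 was the member with both METTL4 libraries below, at 0.596 and 0.952 against 1.19 and 1.16.

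MRPL1, which forms the stalk beside the tRNA exit site, had values of 15.7 and 15.3 with the control vector and of 21.8 and 22.9 with METTL4, a log2 fold change of 0.50 (SE 0.107, limma adjusted p = 0.00209). MRPS6 went from 51.7 and 54.5 to 74.4 and 75.5, a log2 fold change of 0.49 (SE 0.0514, limma adjusted p = 5.43e-06). MRPL10, to which MRPL12 binds in the stalk, went from 27.8 and 27.2 to 38.0 and 35.5. MRPL36 went from 26.5 and 25.1 to 35.5 and 32.9, and no member named here had overlapping groups. Without METTL4 replicate 1, MRPL10 and MRPL36 were at 0.36 and 0.34, short of 1.3-fold. The other 5 were MRPL15, MRPL17, MRPL18, MRPL51 and MRPL54, with log2 fold changes of 0.38 to 0.40. Of the 9 that rose, 6 were among the 20 that fell with METTL4-si in FADU, which is 66.7% of the first list and 30% of the second. Over all tested genes these shares were 43.7% and 20.7%. Those 6 were MRPL15, MRPL17, MRPL18, MRPL51, MRPL54 and MRPS6, and the 2 comparisons share no library.

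RP11-390F4.3 overexpression was compared with the same control vector libraries. The columns of these 2 libraries carry a name found in no label and were taken as RP11-390F4.3 because the labels of both samples point to this set of values and the other columns are named for the control and METTL4. Here 3 members rose, 5 fell and 67 did not pass, against 16.8% and 12.8% of all tested genes. The shares of members, 4% and 6.67%, were below those of all genes. With libraries centred on their median 2 rose and 7 fell. Without RP11-390F4.3 replicate 1, 5 rose and 7 fell, and without replicate 2, the library with the higher breast luminal sum, 2 rose and 2 fell. At an adjusted p under 0.05 with any fold, 19 members rose and 13 fell, against 28% and 24.8% of tested genes. Both libraries were above both controls for 28 members, against 39.1% of tested genes. The median log2 fold change was 0.05 and turned to -0.03 with median-centred libraries, so no direction is given for the members together.

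MRPS6 rose most, to 87.0 and 83.9 from the control values of 51.7 and 54.5 (log2 fold change 0.68, SE 0.0514, limma adjusted p = 1.56e-07). MRPL10 was at 39.1 and 40.8, a log2 fold change of 0.52 (limma adjusted p = 1.31e-05). MRPL41, a mitochondria-specific large subunit protein, was at 26.5 and 32.0 against 22.6 and 20.9, and its log2 fold change was 0.27 without replicate 2 and 0.35 without control replicate 2, both short of 1.3-fold. Thus MRPS6 and MRPL10 rose with both vectors, which share their control libraries. MRPL46, a protein of the central protuberance, fell from 15.7 and 14.7 to 10.5 and 10.2, a log2 fold change of -0.51 (limma adjusted p = 0.000226). MRPS25, a mitochondria-specific small subunit protein, went from 48.7 and 49.4 to 36.6 and 36.3, a log2 fold change of -0.42 (limma adjusted p = 3.07e-05). MRPL1, which rose with METTL4, was at 12.9 and 9.81 here, a log2 fold change of -0.43. That was -0.25 and short of 1.3-fold without replicate 2. The other 2 that fell, MRPL38 and MRPS24, had values of 2.34 and 1.88 and of 0.765 and 0.386.

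**Figure D4:**
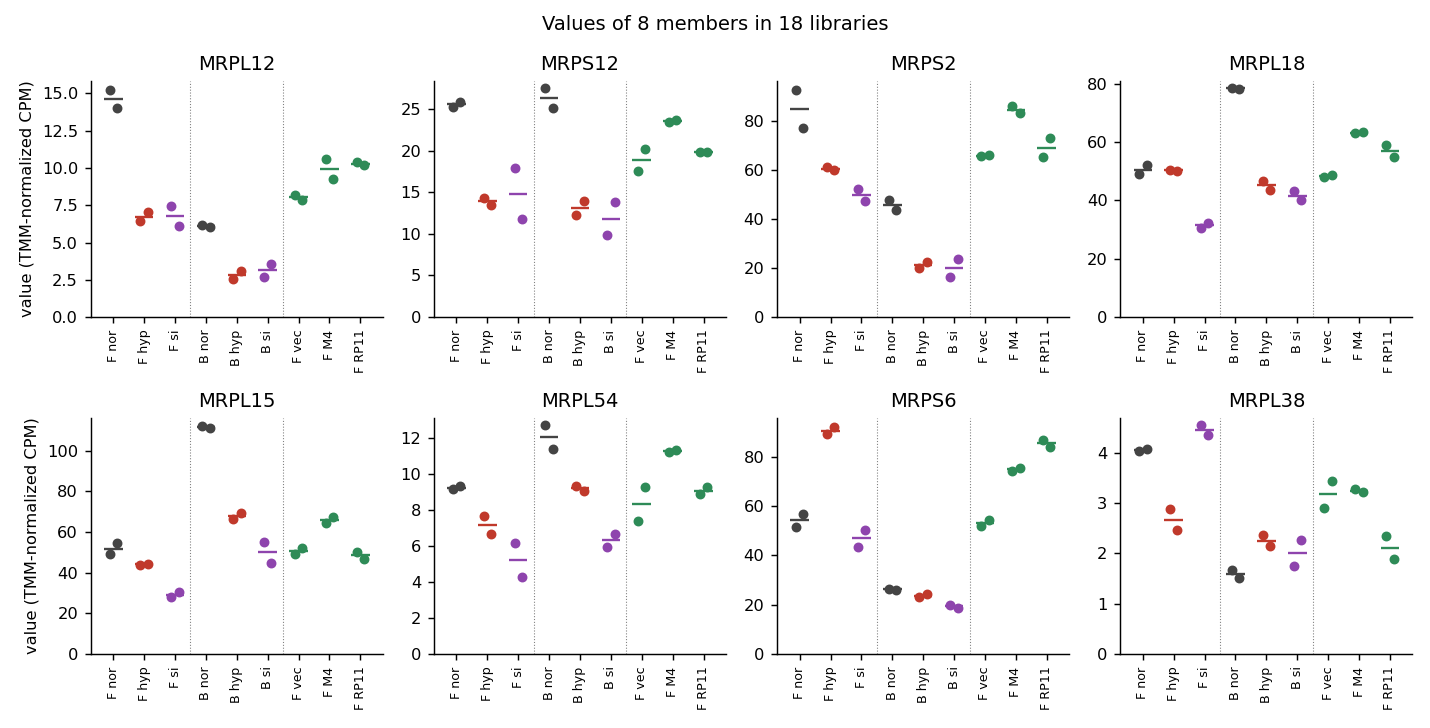
Values (TMM-normalized CPM) of 8 members in 18 libraries, 1 point per library with a line at the group mean, for FADU (F) and BFTC909 (B) in normoxia (nor), hypoxia (hyp) and hypoxia with METTL4-si (si), and for FADU with control vector (vec), METTL4 (M4) or RP11-390F4.3 (RP11). Dotted lines separate tables that were normalized separately. MRPL12, MRPS12 and MRPS2 drop under hypoxia in both lines, and MRPS6 is at 89.1 and 92.2 in FADU hypoxia against 23.0 and 24.3 in BFTC909 hypoxia.

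The METTL4 mutant clones were compared with the CRISPR control under hypoxia for the 74 members in that table. With 1 control library the differences have no replicate check, and no p-value is given. The median log2 ratio of (value + 1) was 0.17 in clone 1 and 0.24 in clone 2, against 0.00 and -0.01 over all 15719 genes. In both clones 47 members were above the control, against 39.6% of all genes, 13 were below in both and 14 differed between the clones. Past 1.3-fold in both clones, 10 members were higher and none was lower, against 8.94% and 11.8% of all genes.

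MRPS30, a large subunit protein also known as a programmed cell death protein, reached 63.1 and 70.9 in the clones from a control level of 36.2. MRPS25 reached 22.9 and 24.6 from 13.6, and MRPS10 reached 36.9 and 35.7 from 21.9. In all 3 both clones were far above the control. These 3 had the highest mean log2 ratios, 0.87, 0.76 and 0.70. The lowest were MRPS9 at -0.32, MRPL10 at -0.31 and MRPS6 at -0.30. MRPS6 went from 50.3 to 44.2 and 37.4 and MRPS9 from 12.4 to 7.93 and 11.9, where clone 2 was close to the control. The siRNA and mutant libraries thus lay on different sides of their controls for the members as a group, at a median of -0.13 with METTL4-si in FADU and of 0.21 over both clones, and the difference was not tested because the tables were normalized separately.

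**Figure D5:**
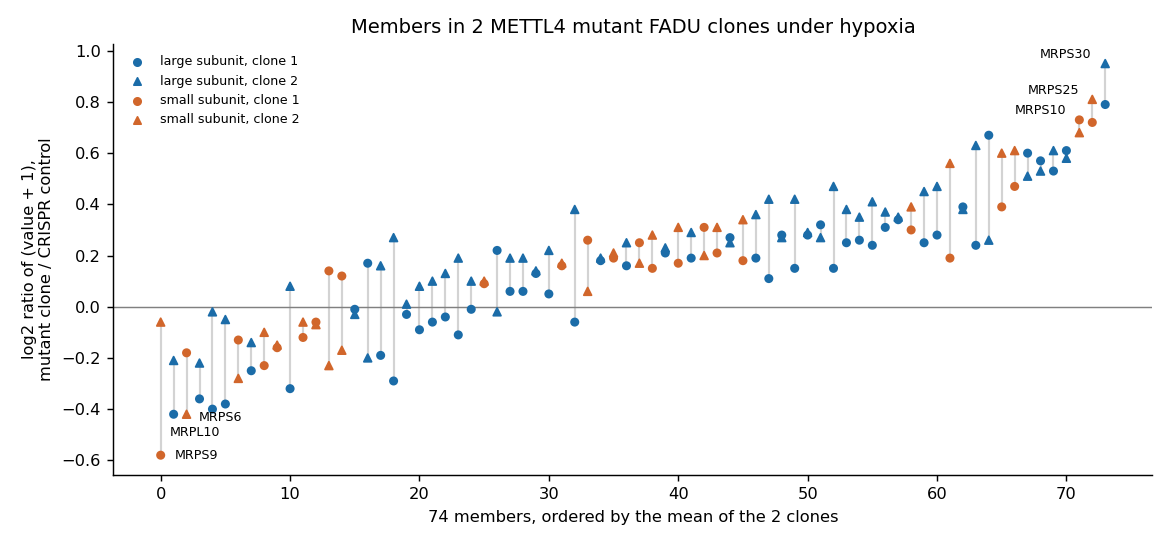
Log2 ratio of (value + 1) of mutant clone 1 (circles) and clone 2 (triangles) to the single CRISPR control library for 74 members in FADU hypoxia, blue for the large and orange for the small subunit, ordered by the mean of both clones. Grey lines join the clones of a gene. The means run from -0.32 for MRPS9 to 0.87 for MRPS30, and 47 members are above 0 in both clones.

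A few members differ from the rest in where or how their product works. MRPS18A, MRPS18B and MRPS18C are paralogs whose proteins sit in different places, MRPS18A in the large subunit and the other two in the small. In BFTC909 hypoxia MRPS18A and MRPS18C fell, at log2 fold changes of -0.50 and -0.71 (limma adjusted p = 0.00966 and 0.00257), and MRPS18B was at -0.37, just short of 1.3-fold. In FADU hypoxia none of the 3 passed, at -0.33, -0.30 and -0.37. MRPS36, whose product is now known as a part of the 2-oxoglutarate dehydrogenase complex, fell in BFTC909 hypoxia from 19 and 18.5 to 11.3 and 12.8. In FADU hypoxia its values were 15.4 and 16.7 against 12.7 and 14.6, which did not pass. MRPS30 was at 87.3 and 92.1 against 84.5 and 85.1 in FADU hypoxia, a log2 fold change of -0.08, and fell in BFTC909 hypoxia from 67.2 and 69.3 to 51.3 and 50.4.

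Other genes of mitochondrial gene expression were read from lists drawn up beside the members. Of 5 mitoribosome proteins with other symbols, 4 fell in BFTC909 hypoxia (80%, against 19.2% of all tested genes) and none passed in FADU hypoxia. AURKAIP1, a small subunit protein, fell most, from a mean of 203 to 125. Of 16 translation factors, 6 fell in BFTC909 (37.5%, against 19.2% of all tested genes) and 4 in FADU (25%, against 12.5%), and none rose. TUFM, the elongation factor that brings tRNA to the ribosome, went from 295 to 174 in FADU and from 117 to 88.7 in BFTC909, at log2 fold changes of -0.76 and -0.39. It rose with METTL4-si in FADU, to 262 (log2 fold change 0.59, limma adjusted p = 0.00105). Of 24 assembly factors tested, 10 fell in BFTC909 hypoxia (41.7%, against 19.2% of all tested genes). In FADU hypoxia 6 fell (25%, against 12.5%) and 2 rose (8.33%, against 12.4%). The RNA helicase DHX30 and MPV17L2, a membrane protein of large subunit assembly, fell in both lines, MPV17L2 from 6.99 to 3.40 in FADU and from 11.3 to 5.56 in BFTC909.

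Mitochondrial transcription and RNA processing genes fell in 14 of 20 tested cases in BFTC909 hypoxia (70%, against 19.2% of all tested genes). In FADU 5 of 21 fell (23.8%, against 12.5%), and none rose in either line. POLRMT, the mitochondrial RNA polymerase, went from 55.0 to 30.0 in BFTC909 and from 26.8 to 18.1 in FADU. TFAM, which packages mitochondrial DNA, fell in BFTC909 from 110 to 61.3. It also fell with METTL4-si in FADU, from 117 to 77.2 (log2 fold change -0.60, limma adjusted p = 0.00672). Of 9 regulators tested in FADU hypoxia, 3 fell and 1 rose, and of 10 in BFTC909 hypoxia, 5 fell and 1 rose. The shares that fell were 33.3% and 50%, against 12.5% and 19.2% of all tested genes. MYC fell in BFTC909 from 122 to 64.7. In FADU it was at 182 and 170 in normoxia and at 162 and 165 in hypoxia. MXI1, a MYC antagonist known as a hypoxia target, rose in both lines, from 9.03 to 31.9 in FADU and from 11.7 to 31.0 in BFTC909. MXI1 fell with METTL4-si, to 10.3 and 16.9. PPARGC1B and PPRC1, coactivators of mitochondrial biogenesis, fell under hypoxia in both lines. With METTL4-si in FADU, PPARGC1B rose from 11.5 and 9.53 to 28.9 and 30.3. YY1 went from 155 and 145 to 172 and 164 in FADU hypoxia, and from 153 and 152 to 128 and 128 in BFTC909. NRF1 went from 30.4 and 30.7 to 26.6 and 24.4 in FADU and from 27.5 and 27.4 to 22.6 and 22.7 in BFTC909. GABPA overlapped between hypoxia and normoxia in both lines. With METTL4 overexpression none of 16 translation factors passed, and of 24 assembly factors MALSU1 and YBEY rose, which is 8.33% against the 8.3% of all tested genes.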

How the data were processed

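RNA-seq libraries were prepared by the authors with a stranded, ribosomal RNA-depleted kit. Per the labels, Trim Galore, HISAT2, HTSeq and edgeR were used with hg19, and the versions, the strand setting and the annotation are not given in the sources used here. The deposited values are a normalized signal per gene, which the authors made as TMM-scaled CPM. Whole reads were recovered for 100% of values (tolerance 0.05). In the CRISPR libraries, 40.91 to 42.95% of the signal lay in rows that name no gene and was left out. The authors' own comparisons (log fold change, mean expression, F and p-value) were not used. The columns of 2 overexpression libraries, whose names match no label, were assigned to RP11-390F4.3 by elimination.

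Identifiers were matched to GENCODE v44 on GRCh37 (96.8 to 97.4% were found). Genes reaching 1 in 2 or more libraries of a table entered limma 3.58.1 (eBayes with trend, R 4.3.3) on log2(value + 1), with all 3 groups of the table sharing the spread. Fold changes on this scale understate the change of low genes. Adjusted p-values are Benjamini-Hochberg over all tested genes. Tables were normalized separately, so tests were made within a table. Fits were tested on simulated data. Alternatives were pseudocounts of 0.1 and 5, other filters, a fit of the compared groups only, no variance trend, median-centred libraries, edgeR 4.0.16 on the recovered reads, blocking on replicate number, calls by adjusted p-value, each library left out, subunits by symbol, and omission of libraries with markers of other cell types.

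Named members are the 4 with the largest change in each direction among those called, not overlapping and with a mean over libraries of 5 or more, those called against the main direction, those called in both lines, the extremes of level and of the mutant ratios, and MRPS18A, MRPS18B, MRPS18C, MRPS30, MRPS36 and MRPL58. Other members and genes named to describe a count were chosen after their values were seen. The members and lists were chosen with earlier results of these data known. Of the members, 37 overlap another coding gene, 13 of them on the same strand, and 36 have annotated pseudogenes, so their values are less certain.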

Additional observations from a re-analysis of the deposited data

Results flagged for a closer look

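There were 4 members that moved in opposite directions under hypoxia in FADU and BFTC909, with no overlap between the libraries compared in either line. MRPS6 had a log2 fold change of 0.73 in FADU and of -0.15 in BFTC909. MRPL38 had a log2 fold change of -0.46 in FADU and of 0.33 in BFTC909, at values below 5 in all libraries. MRPS31 was at 0.12 and -0.20 and MRPL46 at -0.15 and 0.21, and neither passed 1.3-fold in a line.

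With METTL4-si, 5 members did so, and none of them passed 1.3-fold in either line. The log2 fold changes in FADU and BFTC909 were -0.32 and 0.08 for MRPL14, 0.28 and -0.26 for MRPL20, -0.27 and 0.10 for MRPL22, 0.22 and -0.10 for MRPS25, and -0.16 and 0.12 for MRPS30. The differences between the lines were not tested, since their tables were normalized separately.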

How the results depend on the processing

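Of the counts and medians under each alternative, 345 were labelled as the same, 36 as moved and 2 as changed in sign. The first label also covers sizeable shifts. For example, 24 members fell in FADU hypoxia and 17 fell there with median-centred libraries. With a pseudocount of 5, 15 members fell in FADU hypoxia with a median of -0.25. At that pseudocount 0 members rose with METTL4-si in either line, and 3 fell with METTL4-si in BFTC909. Also at 5, 2 rose with METTL4 overexpression with a median of 0.18, 2 fell with RP11-390F4.3, and the mutant median was 0.16. With median-centred libraries the FADU hypoxia median was -0.25, 1 member rose with METTL4-si in FADU and 1 in BFTC909 hypoxia, 0 rose and 8 fell with METTL4-si in BFTC909, and the RP11-390F4.3 median turned to -0.03. By adjusted p at any fold, 0 rose and 12 fell with METTL4-si in BFTC909, 39 rose with METTL4, and 19 rose and 13 fell with RP11-390F4.3, and adjusted p with the fold also left 0 that rose with METTL4-si in BFTC909. The METTL4 overexpression median was 0.20 in edgeR and 0.22 for members with a mean of at least 5, a filter that left 3 that fell with RP11-390F4.3. The large minus small difference was -0.01 with METTL4-si in FADU without the libraries with other markers, and 0.03 in BFTC909 hypoxia by symbol. The causes were not tested.

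Leaving out each library in turn gave 17 to 25 members that fell in FADU hypoxia and 43 to 52 in BFTC909. With METTL4-si in FADU it gave 2 to 7 that rose, 17 to 24 that fell and a large minus small difference of -0.12 to 0.03. In BFTC909 0 to 5 rose with METTL4-si, and the hypoxia difference between subunits was 0.07 to 0.12. The METTL4 overexpression median was 0.19 to 0.22. For RP11-390F4.3, 2 to 5 rose, 2 to 7 fell and the median was 0.01 to 0.07. edgeR on whole reads called 26 members down and 1 up in FADU hypoxia, 51 and 0 in BFTC909 hypoxia, 19 and 4 with METTL4-si in FADU, 5 and 1 in BFTC909, 0 and 10 with METTL4 and 6 and 4 with RP11-390F4.3. A fit left with 1 library in a group takes its spread from the others. Of the values of named members, 873 kept their call and 84 lost it, 18 of these with a pseudocount of 5.

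The replicate numbers were not taken as pairs. Deviations of same-numbered libraries correlated at 0.648 between FADU normoxia and METTL4-si, whose first replicates both held breast markers, and at -0.0652 to 0.154 in the other group pairs. With the replicate number as a block, 50 members fell in BFTC909 hypoxia and the other counts of members were the same. The numbers in the RP11-390F4.3 column names could not be tied to a labelled sample, so these libraries entered no block. Members with low values, such as MRPS24, MRPL30 and MRPL38, rest on few reads.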
